A study of Bos taurus with 39 samples.

Results

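Predicted miR-906 is a mature microRNA (miRNA) that the study predicted from its own reads and placed on the bovine mitochondrial genome. It was chosen as the single entry of the table of predicted mature miRNAs whose name ends in miR-906, and is 1 of 1995 miRNAs counted, of which 1030 were known and 965 predicted. The choice used measured values, because the study singled it out for its lower level in the CBX and DO groups than in the control group at 22 h. Those comparisons, and others that share their libraries, are therefore given as descriptions with no test.

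The study asked whether miRNAs pass between bovine oocytes and their cumulus cells through gap junctions. In all, 39 small RNA libraries covered 13 conditions with 3 libraries each. Oocytes of the control group matured inside intact cumulus-oocyte complexes and were taken at 0, 1, 6 and 22 h. CBX oocytes matured in intact complexes with carbenoxolone, a gap junction blocker derived from glycyrrhetinic acid, and were taken at 1, 6 and 22 h. DO oocytes were stripped of cumulus cells before maturation and matured alone. Cocult oocytes were stripped likewise and shared the well with intact complexes across a porous insert, without contact. All oocytes came from slaughterhouse ovaries of cattle, and each library is a pool of oocytes, so a difference between libraries is a difference between pools. Complexes were freed of cumulus cells by vortexing in hyaluronidase after maturation, and denuded oocytes had their zona removed with pronase, so the last handling step differed between these groups. Breed and age of the animals are not given in the sources used here.

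A miRNA is a short RNA that guides Argonaute proteins to messenger RNAs, mainly through the seed near its 5′ end, and lowers their translation or stability. Most are cut from hairpins transcribed from nuclear genes, and RNAs of miRNA size from the mitochondrial genome are also found in small RNA libraries. The oocyte carries far more copies of the mitochondrial genome than other cells do, and cumulus cells keep contact with it through projections that cross the zona pellucida and end in gap junctions.

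The mature sequence is shown because the identity of the molecule rests on it alone. The first line has the seed, bases 2 to 8, in capitals. The second has in capitals bases 2 to 11, which equal their own reverse complement.
predicted miR-906, seed: gAGGGAUCccugccuagcggg
predicted miR-906, palindrome: gAGGGAUCCCUgccuagcggg

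The RNA is 21 bases long, with 71.4% G or C. The study placed it within chrM:16169-16279 of ARS-UCD1.2, on the minus strand, an interval of 111 bases that is wider than the mature sequence. In cattle, the far end of the numbering of this circular genome falls in the noncoding control region, which holds the origin of heavy strand replication and the transcription promoters. That placement is general knowledge, and no annotation of this build was used here. Sequences were at hand for 18 predicted miRNAs, among which it ranked 6 by GC content, in a range from 31.6 to 100% with a median of 60.6%. It was the 1 entry of the 18 on the mitochondrial genome, and no other of them had its seed. The longest palindrome in the others had 8 bases, against 10 in predicted miR-906. These 18 were themselves picked by the study from these libraries, so they are not a sample of all predicted miRNAs.

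The molecule was counted in 39 of 39 libraries, from 4 to 291 times per library (median 64) and 3629 times in all. By summed counts it ranked 120 among all miRNAs and 70 among the predicted ones. Its rank within a library lay between 62 and 354 (median 143), with 693 to 1128 miRNAs detected. No other entry of the table has the same counts in every library. Total miRNA counts per library ranged from 11985 to 175429 (median 70069), so that 3 counts, the limit that a count of 0 allows, correspond to 17.1 to 250.3 CPM, the counts scaled to a common library total (counts-per-million). The library with 4 counts, replicate 2 of CBX at 22 h, had 18796 counts in all. Levels below are TMM-normalized CPM, which divide by a library size corrected with edgeR's trimmed mean of M-values over all 39 libraries. Intervals beside single libraries are exact 95% Poisson intervals and cover counting error only.

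At 22 h predicted miR-906 was lower in each of the CBX, DO and cocult libraries than in any control library. In control it was counted 173, 123 and 234 times in replicates 1 to 3, or 1422, 1761 and 2492 CPM. In CBX it was counted 49, 4 and 44 times, or 551, 218 and 527 CPM. The highest CBX library had a level with an interval of 407 to 728, and the lowest control library one of 1218 to 1650. In DO the counts were 57, 29 and 44, or 828, 531 and 734 CPM. In cocult, whose oocytes shared the medium but not the contact, they were 156, 51 and 67, or 1072, 854 and 985 CPM. The mean levels were thus 1892 ± 547 CPM in control (SD, n = 3), 970 ± 109 in cocult, 698 ± 152 in DO and 432 ± 186 in CBX. DO and CBX overlapped, because the lowest DO library lay below the highest CBX library. The lowest cocult library (interval 636 to 1123) and the highest DO library (627 to 1072) were not set apart by counting error.

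Paired by replicate number, 9 of 9 differences from control at 22 h were negative. On the log2 scale CBX lay below control by -1.33, -2.87 and -2.19, DO by -0.76, -1.68 and -1.73, and cocult by -0.40, -1.02 and -1.32. Replicate 1 had the smallest difference in each group. The fitted log2 difference from control was -2.04 for CBX (standard error, SE, 0.35), -1.43 for DO (SE 0.27) and -0.94 for cocult (SE 0.25), and DO exceeded CBX by 0.66 (SE 0.34), a comparison in which 0.232% of 431 miRNAs were called. The first 3 share the same control libraries, and CBX and DO against control are the contrasts that chose the molecule. Over all miRNAs tested, 11% had no overlap between control and CBX at 22 h, 10.8% between control and DO, and 5.82% between control and cocult. With edgeR's quasi-likelihood test, a Benjamini-Hochberg adjusted p under 0.05 and a log2 difference of at least 1 in size, 0% of 474 miRNAs were called for CBX, 0% of 445 for DO and 0.216% of 464 for cocult. At an unadjusted p under 0.05 the numbers were 50, 34 and 24. The study, with the same kind of test, called predicted miR-906 for both CBX and DO. These fits, each on the libraries of control and 1 other condition, did not reproduce those calls. For CBX the study's comparison covered fewer miRNAs than the 474 tested here. In 1 fit over all libraries, 5 of 598 miRNAs were called for CBX and 0 of 598 for DO. There the log2 difference of predicted miR-906 for CBX was -2.14 (SE 0.46). Whether it was among those 5 calls is not given here. The number of calls varied with other settings too. With no low-count filter it was 6 of 1247 for CBX, 0 of 1245 for DO and 11 of 1272 for cocult. With deduplicated reads as library sizes it was 2 of 458, 5 of 447 and 1 of 475. The number also depended on single replicates. Without replicate 2 it rose to 17 for CBX and 19 for DO, and without replicate 1 to 6 for DO and 6 for cocult.

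The separation of control from cocult depended on the denominator. With all deduplicated reads as the denominator, a total that includes reads of no miRNA, control at 22 h had CPM of 14.9, 12.9 and 27.0 and cocult 13.2, 6.04 and 8.82, so that replicate 2 of control lay below replicate 1 of cocult. Control kept the highest mean of the 13 conditions on that scale (18.3 ± 7.66) and CBX at 22 h the lowest (3.27 ± 2.28). With deduplicated reads as library sizes, miRNAs as a whole were lower too. Their median log2 difference from control at 22 h was -0.66 for CBX and -0.36 for DO.

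**Figure D1:**
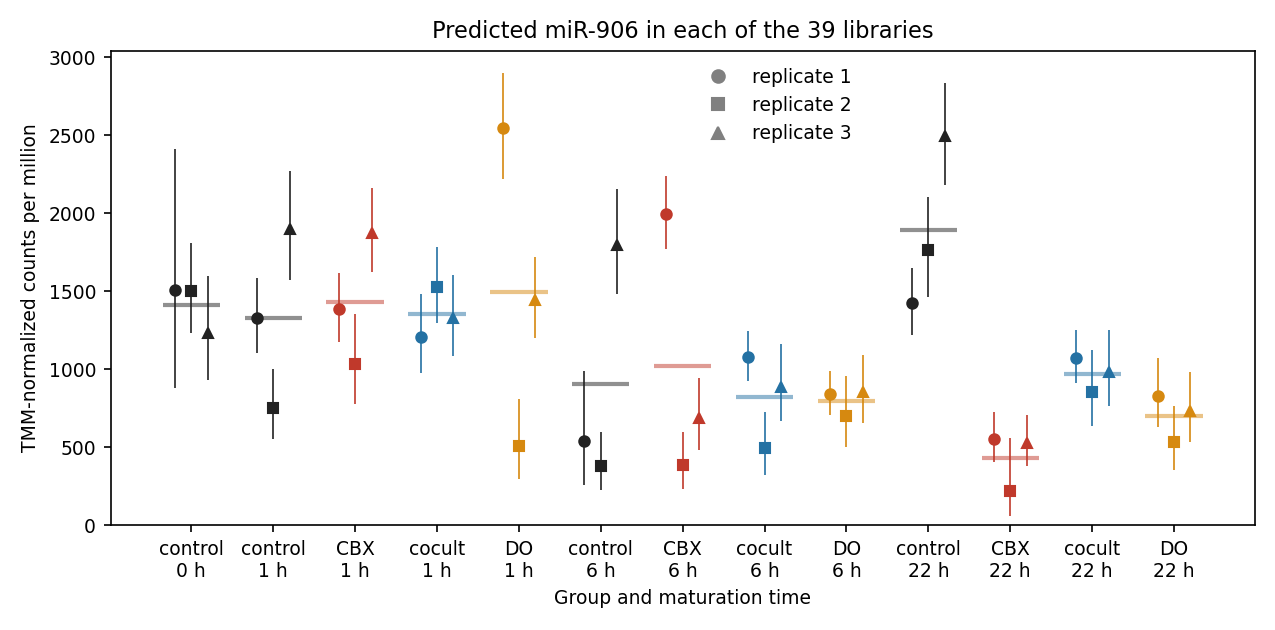
Level of predicted miR-906 in TMM-normalized CPM (linear axis) in each of the 39 libraries, by group and maturation time. Symbols mark replicate numbers, vertical lines are exact 95% Poisson intervals for counting error, and horizontal bars are means of 3 libraries. The 22 h control libraries lie between 1422 and 2492 and the 22 h CBX libraries between 218 and 551, while at 1 h and 6 h the 4 groups overlap.

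At 1 h no difference between the groups was detected. Control had 1328, 753 and 1896 CPM, from 123, 47 and 118 counts. CBX had 1383, 1035 and 1875 CPM, and cocult had 1209, 1526 and 1327. DO held both extremes of this time point, with 2543, 506 and 1445 CPM, from 224, 17 and 126 counts. The 4 means lay between 1325 and 1498 CPM, and each group overlapped every other. The log2 difference from control was 0.11 for CBX (SE 0.26, 95% interval -0.43 to 0.65), 0.09 for cocult (SE 0.31, -0.65 to 0.83) and 0.07 for DO (SE 0.34, -0.80 to 0.94). After Benjamini-Hochberg adjustment, p in edgeR's quasi-likelihood test was 0.997, 0.994 and 0.969, and the joint test of the 4 groups had F = 0.0872 and an adjusted p of 0.998.

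At 6 h the groups did not separate either. The SD was larger than at 1 h in control, CBX and cocult, and smaller in DO. Control had 539, 377 and 1797 CPM, from 10, 18 and 115 counts. CBX had 1994, 386 and 686 CPM, from 291, 20 and 38 counts. Which library was high therefore differed, replicate 3 in control and replicate 1 in CBX, and the paired log2 differences of CBX from control were 1.84, 0.03 and -1.36. Cocult had 1075, 494 and 889 CPM, and DO 840, 702 and 853. The DO libraries were the closest together of the 4 groups at 6 h (798 ± 83.5 CPM, n = 3), against 904 ± 777 in control. The fitted log2 difference from control was -0.01 for CBX (SE 0.62, 95% interval -1.39 to 1.38), -0.01 for cocult (SE 0.52, -1.27 to 1.25) and 0.04 for DO (SE 0.49, -1.18 to 1.25). Adjusted p-values from edgeR's quasi-likelihood test were 0.999, 0.994 and 0.979, and the joint test gave F = 0.13 and an adjusted p of 0.994. Without replicate 3 the CBX difference was 0.85, and without replicate 1 it was -0.91, so these data fix neither sign nor size at 6 h.

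**Figure D2:**
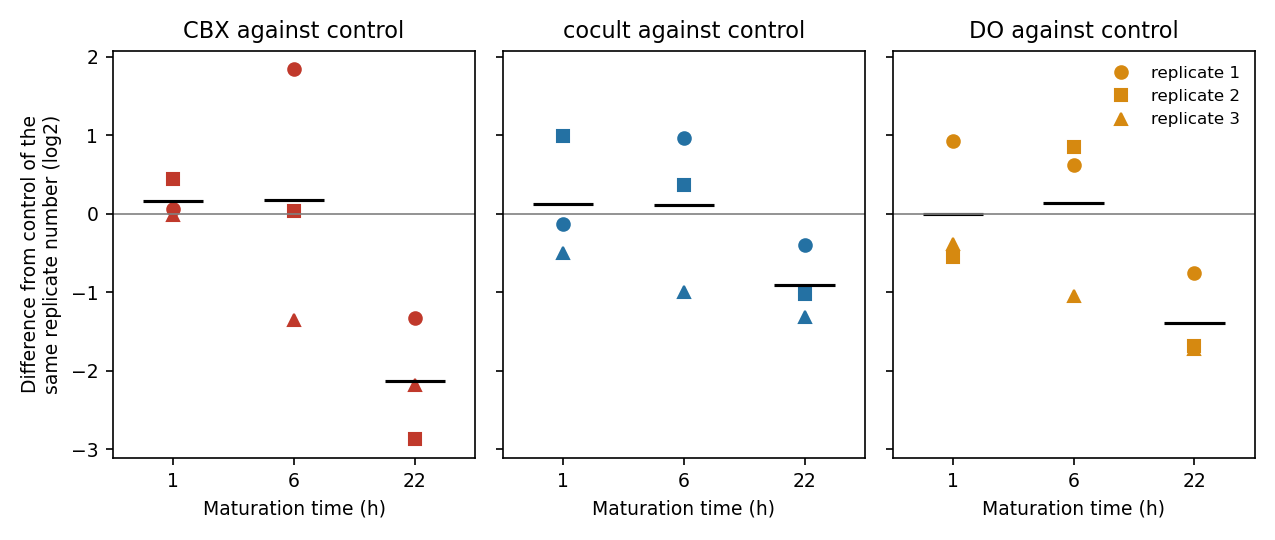
Log2 difference in predicted miR-906 between each treated library and the control library of the same replicate number, at 1, 6 and 22 h, for CBX, cocult and DO. Symbols are the 3 replicate numbers, black bars their means, and the grey line marks no difference. Points lie on both sides of it at 1 h and 6 h, and 9 of 9 lie below it at 22 h.

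No miRNA was called by edgeR in any of the 6 comparisons with control at 1 h and 6 h (0% of 388 to 448 tested), or in the joint tests (0% of 530 at 1 h and 0% of 457 at 6 h). At an unadjusted p under 0.05 there were 7 to 15 miRNAs in a comparison with control, and 17 and 28 in the joint tests. DESeq2 called 2 for DO against control at 6 h, 2 and 1 in the joint tests, and 0 elsewhere. With no low-count filter edgeR called 0 to 11 in the comparisons with control, and 7 and 4 in the joint tests. Without replicate 3 it called 6 and 4 in the joint tests. For predicted miR-906 the exact two-sided permutation p over libraries lay between 0.7 and 1 in these comparisons, where 3 libraries against 3 cannot go below 0.1.

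Over time the control mean went from 1414 CPM at 0 h to 1325 at 1 h, 904 at 6 h and 1892 at 22 h, with no change that passed a test. At 0 h control had 1506, 1502 and 1233 CPM, from 17, 110 and 57 counts, which is a narrow range (1414 ± 157, n = 3). The level did not differ detectably among 0, 1 and 6 h in control (F = 1.44, adjusted p = 1.00 in edgeR's quasi-likelihood test, 0% of 446 called, 14 at an unadjusted p under 0.05). From 1 to 6 h the paired log2 changes were -1.26, -0.95 and -0.08, with a fitted change of -0.72 (SE 0.40, 95% interval -1.67 to 0.23, adjusted p = 0.930). From 6 to 22 h all 3 control pairs were higher, by 1.36, 2.15 and 0.47, and from 1 to 22 h all 3 were higher too, with a fitted value of 0.51 (SE 0.26). In that last comparison 0.44% of 455 miRNAs were called. The 22 h values are those that chose the molecule, and carry no test.

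In the CBX group the level was lower at 22 h than at 1 h in 3 of 3 pairs. The paired log2 changes were -1.29, -2.12 and -1.78 and the fitted one was -1.75 (SE 0.32), and no CBX library at 22 h reached the lowest at 1 h (1035 CPM). Such a lack of overlap was found for 19.9% of the 488 miRNAs tested in this comparison, of which 0% were called and 60 had an unadjusted p under 0.05. The change from 1 to 6 h was 0.52, -1.37 and -1.42 in the pairs and -0.77 in the fit (SE 0.45, 95% interval -1.74 to 0.20, adjusted p = 0.999 in edgeR's quasi-likelihood test). The interval reaches 0, replicate 1 moved the other way from the rest, and the value ran from -1.56 to -0.31 as each replicate was left out.

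In the groups without cumulus contact, DO and cocult, the paired log2 changes after 6 h lay between -0.39 and 0.76. In DO the paired log2 changes from 1 to 6 h were -1.57, 0.45 and -0.74, with a fitted change of -0.79 (SE 0.37, 95% interval -1.66 to 0.09, adjusted p = 0.493 in edgeR's quasi-likelihood test), and those from 6 to 22 h were -0.02, -0.39 and -0.21. In cocult they were -0.17, -1.58 and -0.56 from 1 to 6 h, and 0.00, 0.76 and 0.14 from 6 to 22 h. Cocult libraries at 22 h all lay below those at 1 h, as 12% of 440 miRNAs did in either direction, with a fitted log2 change of -0.50 (SE 0.26). The joint test of the 3 times in cocult gave F = 3.77 and an adjusted p of 0.645 (0% of 473 called, 29 at an unadjusted p under 0.05). For DO the fitted change from 1 to 22 h was -1.02 (SE 0.36), in 2 of 3 pairs, and 1.81% of 442 miRNAs were called. Those 8 calls became 52 without replicate 2 and 0 without replicate 3, while the change in predicted miR-906 ran from -1.35 to -0.62 as each replicate was left out. Whether the change after 6 h differed between groups was not tested, because 22 h values entered the choice of the molecule.

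**Figure D3:**
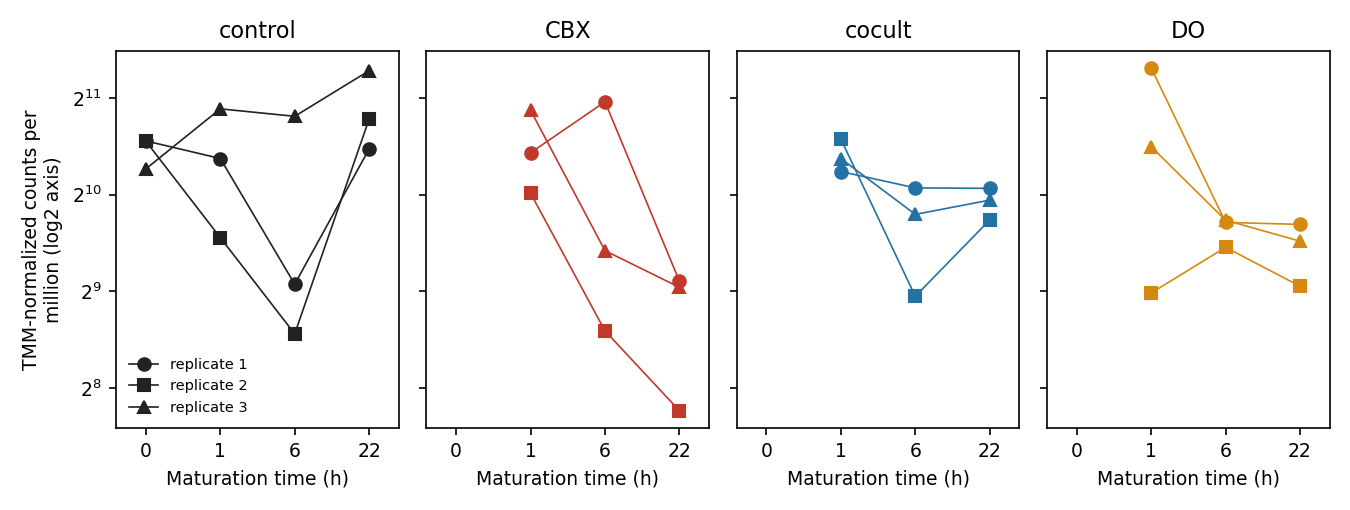
Predicted miR-906 in TMM-normalized CPM (log2 axis) against maturation time in hours (evenly spaced, not to scale), for control, CBX, cocult and DO. Lines join libraries of the same replicate number, which are different oocyte pools. The 3 control lines rise from 6 to 22 h, the 3 CBX lines fall, and 0 h was taken in control alone.

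Ordered by mean level, the conditions ran from control at 22 h (1892 CPM) through DO at 1 h (1498), CBX at 1 h (1431), control at 0 h (1414), cocult at 1 h (1354) and control at 1 h (1325). Below these came CBX at 6 h (1022), cocult at 22 h (970), control at 6 h (904), cocult at 6 h (820), DO at 6 h (798), DO at 22 h (698) and CBX at 22 h (432). Apart from control at 22 h, every mean at 0 or 1 h stood above every mean at 6 or 22 h. Of the 12 neighbours in this order, 12 overlapped in range and 11 differed by less than the larger of their SDs. The exception was DO against CBX at 22 h, whose means differed by 266 CPM, against an SD of 186.

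The SD within a condition was 0.67 on the log2 scale, where counting alone would give 0.23. The median over the 598 miRNAs that passed the low-count filter on all libraries was 0.54, which places predicted miR-906 at percentile 62.9. Less abundant miRNAs have a wider counting error, so the comparison was also made among the 133 miRNAs with between 0.5 and 2 times its summed counts. There the median was 0.42 and predicted miR-906 ranked 19 from the most variable. The biological coefficient of variation, edgeR's estimate of variation between libraries beyond counting, was 0.354, against a median of 0.260.

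**Figure D4:**
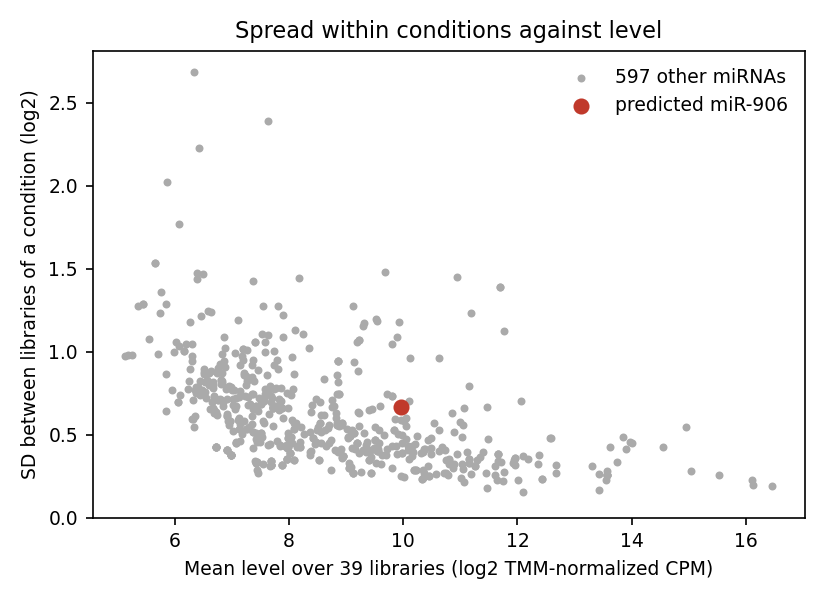
SD of the log2 level between libraries of a condition (y axis) against the mean log2 level over 39 libraries (x axis), for 598 miRNAs. Predicted miR-906, in red, has an SD of 0.67, above most miRNAs of similar level.

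Part of this spread went with the replicate number. Replicate 2 was the lowest of the 3 libraries in 10 of 13 conditions, and replicate 1 the highest in 7. Of the sum of squares of the log2 level over the 39 libraries, 50.6% lay between conditions, 19.1% between replicate numbers and 30.3% in the rest. Among the 133 miRNAs of similar counts the medians were 31.6% between conditions, which is also the share that the degrees of freedom alone give, and 10.6% between replicate numbers. By the share between conditions predicted miR-906 ranked 5 of 133, a share that holds the 22 h values that chose it. Total counts of replicate 2 libraries ran from 18796 to 99835, and the part of depth in their lower level was not tested.

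The miRNAs whose log2 levels varied most like predicted miR-906 were found by Pearson's r over the 39 libraries, among 354 miRNAs (113 known, 241 predicted) with at least 10 counts in at least 20 libraries. The highest were bta-miR-101 (r = 0.74), predicted miR-858 (0.74), predicted miR-242 (0.73), predicted miR-859 (0.73) and bta-miR-138 (0.72). The counts of predicted miR-858 and miR-859 were almost the same, with totals of 678 and 679, so they count as a single signal. Over the 13 condition means r was 0.79 for bta-miR-101 and 0.87 for predicted miR-242, and the median r of all 354 over libraries was -0.02. The points share libraries, depth and normalization, so that these values are descriptions.

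The 39 libraries include those at 22 h that chose predicted miR-906, so a likeness to it there follows in part from the choice. For bta-miR-101 the levels at 22 h were 2429 ± 466 CPM in control and 1178 ± 741 in CBX, and for predicted miR-242 1236 ± 177 and 861 ± 321 (SD, n = 3). Relative to its own mean over conditions, predicted miR-906 stood at 0.90 log2 units in control at 22 h, and bta-miR-101 at 0.22. At CBX 22 h they stood at -1.23 and -1.09.

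The opposite course was taken by predicted miR-162 and predicted miR-150, each with r = -0.73. The latter shares only its number with the known bta-miR-150. Predicted miR-162 averaged 3159 ± 781 CPM in control and 7285 ± 1098 in CBX at 22 h, and it too was singled out by the study for this contrast. Its sequence, placed by the study at chr13:76526680-76526794 of ARS-UCD1.2 on the minus strand, is shown with its seed in capitals, to compare with that of predicted miR-906.
predicted miR-162: uCCAUCUGgacggcuuggcauuggg

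**Figure D5:**
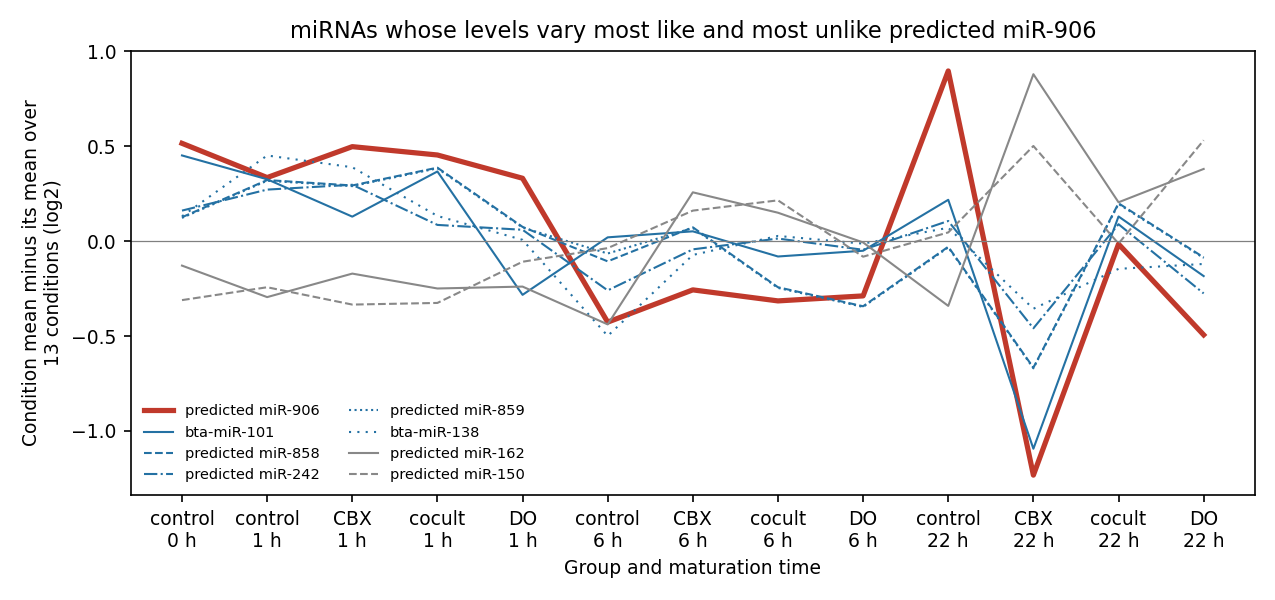
Condition mean of the log2 level minus the mean over the 13 conditions (log2 units), for predicted miR-906 (red), the 5 miRNAs most like it over 39 libraries (blue) and the 2 most unlike it (grey). At CBX 22 h predicted miR-906 stands at -1.23 and bta-miR-101 at -1.09, and predicted miR-162 stands at 0.88.

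The libraries are of oocytes, and miRNAs linked to cumulus and granulosa cells were present in them. No list of miRNAs that define oocytes was used, so the label was not checked in that way. Of 17 cumulus and granulosa miRNAs listed, bta-miR-21-3p and bta-miR-212 had no count. The summed level of the list at 22 h was 22188 to 24665 CPM in control, 18445 to 19614 in cocult, 18064 to 21359 in DO and 14141 to 18461 in CBX. Without bta-miR-21-5p, a miRNA that the study also picked from these libraries, the ranges overlapped, with 12663 to 17040 CPM in control, 13224 to 14732 in cocult, 12430 to 14600 in DO and 10823 to 13693 in CBX. The part of cumulus RNA in the level of predicted miR-906 was not tested. In bulk libraries, more remaining cumulus cells and more RNA per cell cannot be told apart. The most counted member, bta-miR-21-5p, had 9153 ± 1380 CPM in control, 4243 ± 803 in CBX, 5123 ± 1115 in cocult and 5793 ± 897 in DO at 22 h, with an r of 0.27 to predicted miR-906 over the 39 libraries. The next, bta-miR-27b, had 4481 ± 1286 in control and 3499 ± 956 in CBX, with an r of 0.51.

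Of the cumulus list, 11 members were tested for control against CBX at 22 h, of which 0 were called and 8 had a negative log2 difference, with a median of -0.34 against -0.03 over all miRNAs. For DO 0 of 10 were called, 8 were negative and the median was -0.25 against -0.01, and for cocult 0 of 11, 7 and -0.21 against -0.03. Over the 21 comparisons the list gave 1 call, 1 of 11 members tested where 0.44% of all miRNAs were called. It was bta-miR-21-5p, higher in control at 22 h than at 1 h (SE of the log2 difference 0.21). In control at 1 h it had 4247 ± 1243 CPM. The study singled this miRNA out for its lower level in CBX than in the same 22 h control libraries. The call is therefore a description, and no p-value is given. Of 7 miRNAs of blood and immune cells, bta-miR-142-3p had no count and 1, bta-miR-150, was abundant enough to test. It was called in none of the comparisons. The summed level of this list at 22 h was 490 to 608 CPM in control, 489 to 495 in CBX, 309 to 637 in cocult and 600 to 769 in DO, with control inside the range of cocult. The second most counted, bta-miR-223, averaged 909 ± 1569 CPM in DO at 6 h, where 1 library had 2721, and lifted the summed list there to 1348 ± 1646 CPM. In the other conditions its mean lay between 0 and 139.8 CPM.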

How the data were processed

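Small RNA libraries (QIAseq miRNA kit, with unique molecular identifiers) were sequenced from total RNA of pooled oocytes. The deposited values are raw, whole-number counts for each mature miRNA. The submitters trimmed and deduplicated the reads (UMI-tools 1.1.2 in the submitters' processing notes, with FastQC 0.11.9), used the forward reads, aligned them to ARS-UCD1.2, and counted known miRNAs of miRBase and miRNAs predicted with miRPro. How reads that fit several places were counted is not given in the sources used here, so reads of the mitochondrial site and of any copy elsewhere in the genome cannot be told apart.

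Known and predicted counts were joined, and each comparison was fitted on all miRNAs of its libraries with edgeR 4.0.16 (limma 3.58.1, R 4.3.3), in the edgeR 3 form of the quasi-likelihood fit. Low counts were removed with filterByExpr (min.count 10, min.total.count 15), library sizes were corrected by TMM, p-values were adjusted by Benjamini-Hochberg, and the replicate number entered as a block, since the study's methods enter the ovary pool as batch. A call needed an adjusted p under 0.05 and a log2 fold change of at least 1 in size. SE is the log2 fold change divided by the square root of F. Levels for plots and correlations had a prior count of 2. Alternatives were DESeq2 1.42.0, RLE size factors, other library sizes and filters, no block, 1 fit over all libraries and leaving out each replicate.

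The molecule, the marker lists and the tests were chosen with earlier results of these data known. The rule for named miRNAs was the 5 highest and 2 lowest in r over 39 libraries, and the 2 most counted of each marker list. By the study's methods, the experiment was repeated and pairs of repeats were pooled into each library, so p-values measure the spread between such pools. That replicate numbers stand for ovary pools is an assumption. Sequences are those of the study.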

Additional observations from a re-analysis of the deposited data

Results flagged for a closer look

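Changes over time that went opposite ways in every pair of 2 groups are given here as mean paired log2 differences. The differences between the groups were not tested, because they rest on the 22 h libraries by which the molecule was chosen. From 6 to 22 h predicted miR-906 moved by 1.32 in control (SD 0.84, 3 of 3 pairs higher), while it moved by -0.98 in CBX (SD 0.75, 3 of 3 pairs lower) and by -0.21 in DO (SD 0.18, 3 of 3 pairs lower). From 1 to 22 h it moved by 0.56 in control (SD 0.57, 3 of 3 pairs higher), by -1.73 in CBX (SD 0.42, 3 of 3 lower) and by -0.47 in cocult (SD 0.33, 3 of 3 lower). In DO from 1 to 22 h 1 of 3 pairs was higher, and in cocult from 6 to 22 h 2 of 3 were. The same 3 control libraries at 22 h enter each of these contrasts.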

How the results depend on the processing

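Of 242 values recomputed under 12 alternative settings for 22 results, 222 kept their direction and their side of the threshold or moved within the replicate spread, 19 changed sign and 1 moved by more. In none of the 14 tests did an alternative bring predicted miR-906 past the threshold, and the lowest adjusted p was 0.120. The sign changes all concern comparisons with control at 1 h and 6 h, whose values are near 0. For CBX at 6 h the log2 difference was 0.011 with DESeq2, 0.15 with deduplicated reads as library sizes, 0.14 with no low-count filter and 0.13 in a single fit over all libraries. For cocult at 6 h it was 0.014, 0.088 and 0.11 under the first 3 of these. For DO it was -0.17 at 6 h in the single fit and -0.013 at 1 h with no filter. The change in CBX from 1 to 22 h became -2.41 with deduplicated reads as library sizes, where the median of all miRNAs was -0.72. The cause was not tested.

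Leaving out each replicate in turn gave log2 differences from control of -0.011 to 0.22 for CBX, -0.37 to 0.42 for cocult and -0.41 to 0.28 for DO at 1 h. At 6 h they were -0.91 to 0.85 for CBX, -0.49 to 0.60 for cocult and -0.34 to 0.70 for DO, and at 22 h -2.52 to -1.81, -1.22 to -0.72 and -1.78 to -1.26. From 1 to 6 h the changes ran from -1.13 to -0.44 in control, -1.56 to -0.31 in CBX and -1.20 to -0.29 in DO. From 1 to 22 h they ran from 0.22 to 0.79 in control, -2.01 to -1.58 in CBX, -1.35 to -0.62 in DO and -0.65 to -0.33 in cocult. For DO at 6 h the sign turned without replicate 1 (-0.24) and without replicate 2 (-0.34), and for CBX at 6 h without replicate 2 (0.07) and without replicate 3 (0.85).

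Without the replicate block, the log2 difference at 6 h was 0.093 for CBX and -0.29 for DO, and the values at 22 h were -2.03 for CBX and -1.46 for DO. The same replicate numbers did not clearly pair the libraries. Over 17 comparisons the correlation of same-numbered libraries' deviations ran from -0.16 to 0.55, and in 5 every pair exceeded 0.1. The block changed no call of predicted miR-906 among the tests. Among all miRNAs, calls for DO against control at 22 h numbered 0 with it and 4 without it.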

Other observations

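In each group the mean of predicted miR-906 was lower at 6 h than at 1 h, and 10 of 12 pairs were lower. This was noticed in the values and then tested on the same data, with no 22 h library, in a fit over the 24 libraries of the 4 groups with group, time and replicate number as terms. The log2 change from 1 to 6 h was -0.69 (SE 0.23, unadjusted p = 0.00529), and the Benjamini-Hochberg adjusted p over 547 miRNAs in edgeR's quasi-likelihood test was 0.145. Among all miRNAs 0.366% were called in that fit, and predicted miR-906 was not. Under 6 other settings, likewise chosen after the values were seen, the change lay between -0.82 and -0.56 and the adjusted p between 0.120 and 0.534. No test of these data shows a change from 1 to 6 h in any single group.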
